A study of Mus musculus with 6 samples.

Results

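The 9 genes followed here encode enzymes that oxidise aldehydes and purines or break down pyrimidines: Aox1, Aox3, Xdh, Uox, Upp1, Upp2, Dpyd, Dpys and Upb1. They were taken by gene name from a table of 34745 mouse genes, and 11435 genes of that table, all 9 among them, were tested. Messenger RNA of bulk liver tissue was sequenced in 6 libraries, with 1 library per sex for each of 3 tissues. The tissues were hepatocellular carcinoma (the tumour) and precancerous liver of Hras12V transgenic C57BL/6 mice, which carry an activated Ras oncogene, and normal liver of wild-type C57BL/6 mice. No mouse was treated. The males had reached 9 months of age and the females 15 months, and an effect of sex cannot be told apart from one of age. The labels do not give the promoter of the transgene, and leave unsaid whether mice were pooled for a library and whether tumour and precancerous tissue came from shared animals.

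Aldehyde oxidases and xanthine dehydrogenase are related enzymes that hold a molybdenum cofactor. Aldehyde oxidases oxidise aldehydes and many nitrogen-containing rings, drugs among them, and are abundant in liver. Xanthine dehydrogenase (Xdh) turns hypoxanthine into xanthine and xanthine into urate, and urate oxidase (Uox), an enzyme that humans lack, carries urate on towards allantoin in rodent liver. Uridine phosphorylases (Upp1, Upp2) release uracil from uridine. Dihydropyrimidine dehydrogenase (Dpyd) then reduces uracil and thymine, dihydropyrimidinase (Dpys) opens the reduced ring, and beta-ureidopropionase (Upb1) frees the beta-amino acid.

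Each library held between 5996585 and 18434508 counts, the males below the females. The hepatocyte markers measured, 7 in number, were all at 1 FPKM or more in every library (FPKM is counts scaled to gene length and library total), and Hnf4a, a hepatocyte transcription factor, lay between 76.4 and 94.3 FPKM. Of these 7, Cps1 and Asgr1 fell in tumours relative to precancerous liver by edgeR's quasi-likelihood test, introduced with Aox3. Relative to normal liver Ttr, Cps1 and Asgr1 fell, and 0 rose in either comparison. Alb, Apoa1 and Apob, not called, had log2 fold changes of 0.90, 0.78 and 0.43 for tumour against normal liver. The 7 markers summed to 64790 and 62520 FPKM in the male and female tumours. That sum, mostly Alb, was 46020 and 50980 FPKM in precancerous liver and 31100 and 45290 FPKM in normal liver. The summed level of 8 Kupffer cell and macrophage markers was 65.5 and 106 FPKM in the male and female tumours, against 249.5 and 307 FPKM in precancerous liver and 152 and 191 FPKM in normal liver. The summed level of 8 cholangiocyte markers was 121 and 139 FPKM in tumours, against 9.06 and 14.7 FPKM in precancerous liver and 11.7 and 12.6 FPKM in normal liver. Most of that tumour sum was Spp1, at 115 and 129 FPKM. Of the 3 cholangiocyte markers tested, Spp1 and Sox9 rose in tumours relative to precancerous liver and all 3, with Epcam, relative to normal liver. Epcam was tested only because of its tumour libraries, at 1.33 and 1.62 FPKM, which favoured a difference. Krt19 and Krt7, not tested, were at or below 1.07 FPKM in every library. Of all genes tested, 13.8% rose and 12.1% fell in tumours relative to precancerous liver, and 17.3% rose and 16.1% fell relative to normal liver. Against precancerous liver, 7 of 8 Kupffer cell markers fell. Of 8 stellate cell and fibroblast markers 4 rose (Acta2, Col1a1, Col1a2 and Col3a1) and 2 fell (Lrat and Dcn), with a sum of 77.4 and 119 FPKM in tumours, 82.8 and 155 FPKM in precancerous liver, and 73.0 and 149 FPKM in normal liver. Col1a2, too, was tested only because of its tumour libraries. Of 8 sinusoidal endothelial markers 4 fell (Stab2, Clec4g, Oit3 and Fcgr2b) and 1 rose (Pecam1), with a sum of 42.7 and 45.0 FPKM in tumours, 67.6 and 81.0 FPKM in precancerous liver, and 60.2 and 78.4 FPKM in normal liver. In bulk tissue, fewer cells of a type and less RNA per cell cannot be told apart, and the part of these markers in the results on the 9 genes was not tested.

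Aox1 and Aox3 lie next to each other on chromosome 1 of GRCm38, on the same strand. Aox1 spans bases 58029931 to 58106413 and Aox3 bases 58113130 to 58200698. Their levels ran differently over the tissues. The 250 bases before each RefSeq start (GRCm38.p6, plus strand) are shown because these neighbours share a locus and a reaction. They lie at chr1:58029719-58029968 for Aox1 and chr1:58112886-58113135 for Aox3, and hold 52.8% and 56.4% G or C.
Aox1: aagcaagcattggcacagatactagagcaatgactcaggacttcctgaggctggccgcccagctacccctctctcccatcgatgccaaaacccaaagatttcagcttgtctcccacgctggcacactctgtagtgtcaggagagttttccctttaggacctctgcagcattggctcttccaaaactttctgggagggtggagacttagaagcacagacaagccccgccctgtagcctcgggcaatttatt
Aox3: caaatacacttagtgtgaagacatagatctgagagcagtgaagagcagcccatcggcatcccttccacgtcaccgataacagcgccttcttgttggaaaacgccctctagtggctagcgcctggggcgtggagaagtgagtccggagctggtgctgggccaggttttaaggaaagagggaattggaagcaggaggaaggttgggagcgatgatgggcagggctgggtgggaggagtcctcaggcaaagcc

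No match to any of 6 motifs searched on both strands was found in these windows, so no letters are in capitals. The motifs were those of HNF1 (found in 0.371% of 32851 promoter windows of the same length), HNF4 (CAAAGTCCA, 0.384%), C/EBP (TTGCNNAA, 9.56%), STAT (TTCNNNGAA, 7.02%), the antioxidant response element (TGACNNNGC, 10.2%) and the TATA box (letters TATAAA, 12.4%). The search covered the 7 genes with an entry. It found a C/EBP match in Uox, from base -171 to base -164 before the start, and a TATA match in Upp2, described with that gene. The matches are in different genes and do not overlap. Xdh and Dpys have no entry.

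Aox3, which oxidises aldehydes in mouse liver, had 2.37 and 1.60 FPKM (141 and 239 counts) in the male and female tumours. Precancerous liver had 3.59 and 3.35 FPKM (200 and 408 counts), and normal liver had 177 and 45.7 FPKM (8594 and 6521 counts). Both transgenic tissues lay far below both normal livers, with no overlap. Aox3 was 74.7-fold lower in the male tumour than in male normal liver and 28.5-fold lower in the female tumour than in female normal liver. In precancerous liver it was 49.4-fold and 13.6-fold below normal liver in males and females. Of the 11435 genes tested, this precancerous difference was the second lowest in males and the eighth lowest in females on the log2(FPKM + 1) scale.

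Over both sexes Aox3 fell by 5.64 on the log2 scale in tumours relative to normal liver (SE 0.54, adjusted p = 0.00257, edgeR's quasi-likelihood test), a 49.9-fold drop. This test models sex and tissue together, and its p-values are adjusted over all genes tested with a threshold of 0.05. They rest on how far the sexes disagree on a tissue difference. That spread is estimated in part from the other genes tested, not from the gene alone. The call held in all 6 fits that left out a library and in all 8 other settings. Precancerous against normal liver gave a log2 fold change of -4.74 (SE 0.52), which missed the threshold in edgeR's test (adjusted p = 0.0554). That difference passed without the male tumour (adjusted p = 0.0315, edgeR), male normal (0.0438), female tumour (0.0275) or female normal library (0.0170). Without the male precancerous library its adjusted p was 0.251 (edgeR), and without the female precancerous library 0.201. It passed with no filter on low genes (adjusted p = 0.00764, edgeR) and in DESeq2 (5.34e-23), and over all settings adjusted p ran between 5.34e-23 and 0.393. Tumour against precancerous liver gave -0.90 (SE 0.45, adjusted p = 0.204, edgeR), although the FPKM values did not overlap. Without the male normal library that difference was -0.88 with adjusted p = 0.0272 (edgeR), and without the female normal library -0.87 with adjusted p = 0.0335, within a range of 0.0272 to 0.825 over all settings.

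Aox1, the other aldehyde oxidase measured above a few counts, had 12.2 FPKM in both tumours (852 and 2139 counts in male and female). It had 4.15 and 4.26 FPKM in male and female precancerous liver (273 and 611 counts). Normal liver gave 15.3 and 6.65 FPKM (875 and 1121 counts). Precancerous liver was lowest in each sex, tumours lay above it without overlap, and the female normal library was below both tumours while the male one was above them. Aox1 rose in tumours relative to precancerous liver by 1.5 on the log2 scale (SE 0.33, adjusted p = 0.0296, edgeR), a 2.83-fold change. The call was lost without the male precancerous (adjusted p = 0.196, edgeR), female tumour (0.113) or female precancerous library (0.119) and without a term for sex (0.130), within a range of 0.000644 to 0.196. Against normal liver the tumour value was 0.20 (SE 0.33, adjusted p = 0.671, edgeR). Without the male normal library it was 0.84 with adjusted p = 0.0247 (edgeR), within a range of 0.0247 to 0.912. Precancerous against normal liver gave -1.30 (SE 0.33, adjusted p = 0.194, edgeR). That value passed in DESeq2 alone (adjusted p = 0.0217), within a range of 0.0217 to 0.868.

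The balance of the neighbours turned over between tissues. Aox3 made up 16.3% and 11.6% of the summed FPKM of Aox1 and Aox3 in male and female tumours, 46.4% and 44.1% in precancerous liver, and 92.1% and 87.3% in normal liver. Their sum was 14.5 and 13.8 FPKM in tumours, 7.74 and 7.61 FPKM in precancerous liver, and 192 and 52.3 FPKM in normal liver. The further copies in the cluster were hardly counted: Aox4 had 0 counts in every library, where the limit that 0 counts allow is 3 counts, and Aox2 had at most 3. The 8 other tested genes within 500 kb of the start of Aox3, chosen after the values were seen, differed between precancerous and normal liver by -1.07 to 0.39 on the log2(FPKM + 1) scale. All of them lie beyond Aox3, with centres 271.7 to 478.0 kb from its start. No gene before Aox1, and no nearer gene after Aox3, was tested. The lowest of them was Clk1, a splicing kinase, at -0.73 in males and -1.07 in females. On the same scale Aox3 stood at -5.28 and -3.42 and Aox1 at -1.66 and -0.54.

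**Figure D1:**
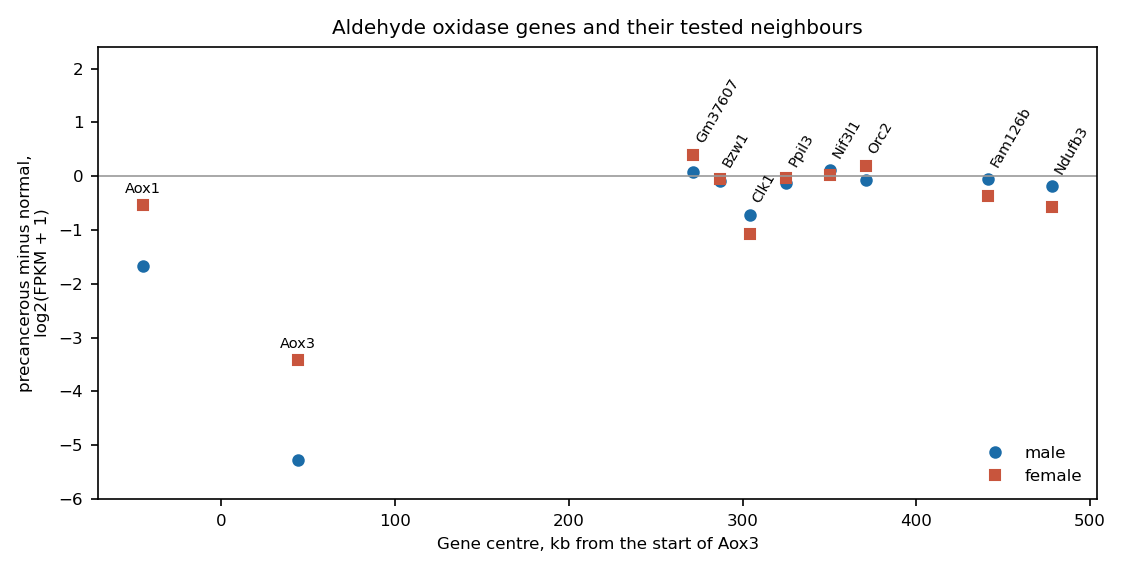
Difference of log2(FPKM + 1), precancerous minus normal liver, for the aldehyde oxidases and the tested genes near them, by distance of the gene's centre from the start of Aox3 in kb; circles are males, squares females, 1 library each. Aox3 stands at -5.28 and -3.42, and the 8 other neighbours, all beyond Aox3, lie between -1.07 and 0.39.

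Xdh, on chromosome 17 (bases 73883908 to 73950182, minus strand), had 32.7 and 31.8 FPKM in the male and female tumours. It had 54.3 and 43.0 FPKM in precancerous liver and 39.2 and 44.2 FPKM in normal liver. Tumours were the lowest libraries in both sexes, and precancerous and normal values overlapped. The log2 fold change was -0.62 for tumour against precancerous liver (SE 0.18, adjusted p = 0.0620, edgeR) and -0.41 for tumour against normal liver (SE 0.18, adjusted p = 0.147, edgeR). The comparison with precancerous liver passed without the male normal library (adjusted p = 0.0494, edgeR) and in DESeq2 (0.0160), within a range of 0.0160 to 0.375. Of the 50-base stretches of the Xdh transcripts, 7.14% also occur in other annotated genes, so part of its reads may be shared.

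Uox, on chromosome 3 (bases 146570426 to 146632305), had the highest FPKM of the 9 genes in every library. Its level was 237 and 193 FPKM in the male and female tumours, 516 and 290.2 FPKM in precancerous liver, and 319 and 269 FPKM in normal liver. Tumours were lowest, and the male precancerous library stood above the rest. Uox fell by 0.90 on the log2 scale in tumours relative to precancerous liver (SE 0.23, adjusted p = 0.0447, edgeR). That call held in 1 of 6 fits without a library: leaving out the male normal library kept it, and without the male tumour, male precancerous, female tumour, female precancerous or female normal library adjusted p was 0.107, 0.321, 0.0719, 0.134 and 0.0564 (edgeR). It was also lost without a term for sex (adjusted p = 0.219, edgeR), and over all settings adjusted p ran from 0.000786 to 0.321. Against normal liver the tumour value was -0.49 (SE 0.23, adjusted p = 0.162, edgeR). The ratio of Uox to Xdh FPKM was 7.25 and 6.06 in tumours, 9.50 and 6.74 in precancerous liver, and 8.15 and 6.10 in normal liver. Precancerous liver had the highest ratio within each sex. The tumour had the lowest in males, while the female tumour and normal ratios were nearly equal.

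**Figure D2:**
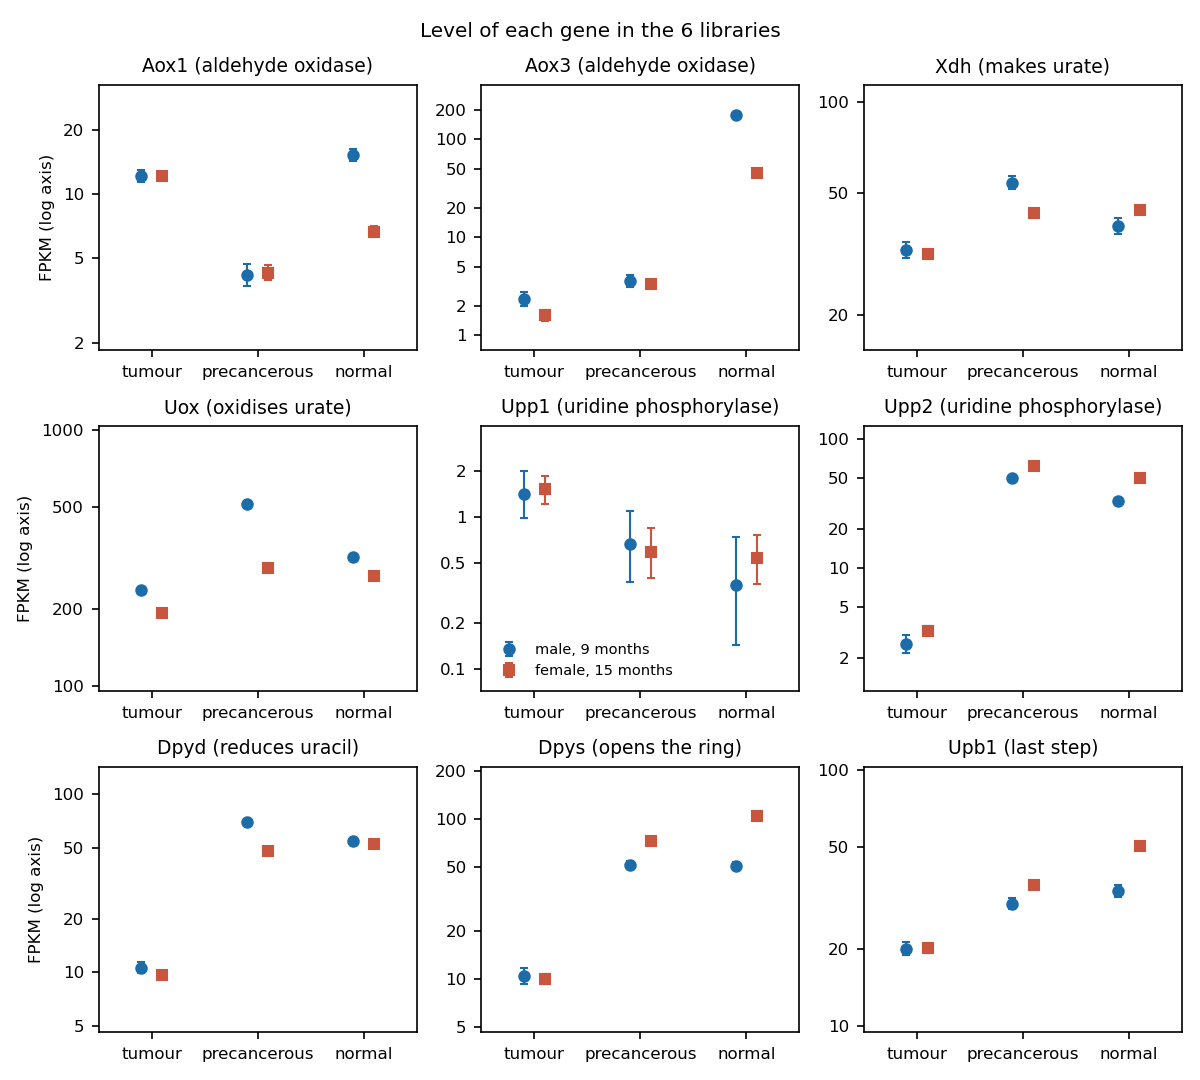
FPKM of the 9 genes on log axes in tumour, precancerous and normal liver; blue circles are the male libraries and red squares the female ones, 1 library each, and bars are 95% Poisson intervals for counting error only. Aox3 is low in tumour and precancerous liver, Upp2, Dpyd and Dpys are low in tumours alone, and Aox1 is lowest in precancerous liver.

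The uridine phosphorylases differed in both level and direction. Upp2, the liver form in mice, on chromosome 2 (bases 58567298 to 58792971), had 2.60 and 3.24 FPKM (165 and 516 counts) in the male and female tumours. Precancerous liver had 50.1 and 62.1 FPKM (2978 and 8061 counts), and normal liver 33.2 and 49.7 FPKM (1717 and 7573 counts). Both tumours lay far below the other 4 libraries, by 19.2-fold and 19.1-fold relative to precancerous liver in males and females. Upp2 fell by 4.29 on the log2 scale in tumours relative to precancerous liver (SE 0.18, adjusted p = 0.00208, edgeR) and fell by 3.84 relative to normal liver (SE 0.18, adjusted p = 0.00116, edgeR). Both calls held in all 6 fits without a library and all 8 other settings. Precancerous against normal liver gave 0.45 (SE 0.16, adjusted p = 0.277, edgeR), with precancerous liver the higher in each sex.

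RefSeq lists 2 starts for Upp2, the second far downstream of the first, and the bases before them are shown because Upp2 had the largest tumour change of the 9 genes against precancerous liver. The first window is chr2:58567084-58567333 and the second chr2:58754934-58755183, both GRCm38.p6, plus strand. G or C makes up 73.2% of the first and 49.2% of the second, and the capitals in the second mark a TATA match from base -29 to base -24. The table has 1 row per gene, so the values do not separate the starts.
Upp2, first start: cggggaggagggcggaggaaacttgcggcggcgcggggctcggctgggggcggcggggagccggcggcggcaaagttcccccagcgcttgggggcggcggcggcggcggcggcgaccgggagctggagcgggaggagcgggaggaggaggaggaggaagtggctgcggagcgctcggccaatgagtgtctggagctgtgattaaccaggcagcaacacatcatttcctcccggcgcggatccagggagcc
Upp2, second start: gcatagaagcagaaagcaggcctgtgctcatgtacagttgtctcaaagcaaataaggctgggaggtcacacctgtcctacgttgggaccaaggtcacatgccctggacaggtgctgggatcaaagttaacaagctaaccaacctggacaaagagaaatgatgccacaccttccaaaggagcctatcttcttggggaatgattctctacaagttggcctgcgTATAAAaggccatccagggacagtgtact

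Upp1, the broadly expressed uridine phosphorylase, on chromosome 11 (bases 9118103 to 9136170), had the lowest FPKM of the 9 genes in every library. It had 1.42 and 1.51 FPKM in the male and female tumours, from 34 and 91 counts. Precancerous liver had 0.666 and 0.589 FPKM (15 and 29 counts), and normal liver 0.357 and 0.537 FPKM (7 and 31 counts). The tumours were highest without overlap, though the 95% Poisson interval of the male tumour, 0.98 to 1.98 FPKM, reached into that of male precancerous liver, 0.373 to 1.10 FPKM. Upp1 passed the filter on low values only through its tumour libraries, so a difference was favoured by the filter. It rose in tumours by 1.22 on the log2 scale relative to precancerous liver (SE 0.29, adjusted p = 0.0366, edgeR) and by 1.61 relative to normal liver (SE 0.30, adjusted p = 0.0147, edgeR). The call against precancerous liver was lost without the male tumour (adjusted p = 0.0754, edgeR), male precancerous (0.160), female tumour (0.131) or female precancerous library (0.326), in DESeq2 (0.129) and without a term for sex (0.289), within a range of 0.0307 to 0.326. The call against normal liver was lost without the male normal (adjusted p = 0.0533, edgeR), female tumour (0.0674) or female normal library (0.0577) and without a term for sex (0.130), within a range of 0.0130 to 0.130. The ratio of Upp2 to Upp1 FPKM was 1.84 and 2.15 in male and female tumours, 75.2 and 105 in precancerous liver, and 93.0 and 92.6 in normal liver.

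The 3 enzymes of reductive pyrimidine breakdown were all lower in tumours, to unequal extents. Dpyd, the first and rate-limiting step, on chromosome 3 (bases 118562129 to 119432924), had 10.6 and 9.61 FPKM in the male and female tumours. Precancerous liver had 69.7 and 48.0 FPKM, and normal liver 54.8 and 52.6 FPKM. Tumours lay below the other 4 libraries, which overlapped among themselves. Dpyd fell by 2.56 on the log2 scale in tumours relative to precancerous liver (SE 0.21, adjusted p = 0.00321, edgeR) and fell by 2.45 relative to normal liver (SE 0.21, adjusted p = 0.00202, edgeR), and both calls held in every fit without a library and every other setting.

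Dpys, the second step, on chromosome 15 (bases 39768485 to 39857470, minus strand), had 10.4 and 9.94 FPKM in the male and female tumours. It had 51.7 and 73.1 FPKM in precancerous liver and 50.8 and 104 FPKM in normal liver. The tumours of both sexes sat at about the same low level, while the other tissues were higher in females than in males. Dpys fell by 2.88 on the log2 scale in tumours relative to normal liver (SE 0.30, adjusted p = 0.00300, edgeR), in all settings. It fell by 2.60 relative to precancerous liver (SE 0.29, adjusted p = 0.00582, edgeR), a call lost without the male precancerous library (0.0600) and without a term for sex (0.0680), within a range of 2.89e-15 to 0.0680.

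Upb1, the third step, on chromosome 10 (bases 75406911 to 75441679), had 20.0 FPKM in both tumours. Precancerous liver had 30.0 and 35.5 FPKM in males and females, and normal liver 33.6 and 50.3 FPKM. Tumours were lowest without overlap, by a smaller margin than for Dpyd and Dpys. Upb1 fell by 0.73 on the log2 scale in tumours relative to precancerous liver (SE 0.19, adjusted p = 0.0437, edgeR) and fell by 1.07 relative to normal liver (SE 0.19, adjusted p = 0.0124, edgeR). The call against precancerous liver was lost without the male precancerous (adjusted p = 0.265, edgeR), female tumour (0.188) or female precancerous library (0.197) and without a term for sex (0.283), within a range of 0.00387 to 0.283. The call against normal liver was lost without the female tumour (adjusted p = 0.0586, edgeR) and without a term for sex (0.109), within a range of 5.58e-06 to 0.109. The ratio of Dpyd to Upb1 FPKM was 0.530 and 0.480 in male and female tumours, 2.33 and 1.35 in precancerous liver, and 1.63 and 1.05 in normal liver.

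Between tumour and precancerous liver, both of transgenic mice, Aox1 and Upp1 rose and Uox, Upp2, Dpyd, Dpys and Upb1 fell, so 7 of the 9 genes were called, where 25.9% of all genes tested were. Rises made up 2 of these calls, against 13.8% of all genes, and falls 5, against 12.1%. Of the rises, Upp1 was tested only because of its tumour libraries, which favoured a difference. The median log2 fold change was -0.90 over the 9 genes and 0.03 over all genes tested. The 9 genes were chosen with earlier results of these data known. Shares and medians set beside those of all genes, here and below, therefore only describe them. All 9 had FPKM values that did not overlap between tumour and precancerous liver, as did 47.9% of all genes. Without the male precancerous library 2 of the 9 were called, Upp2 and Dpyd, and without the female tumour or female precancerous library 3, these and Dpys; without the male tumour 5 were called, and without the male normal library 9. With a filter on the mean FPKM, under which Upp1 is not tested, 6 were called. At least 2-fold differences on the log2(FPKM + 1) scale were found for 5 of the 9 genes in males, against 11.3% of all genes, and for 4 in females, against 10.8%. Aox1 was higher and Upp2, Dpyd and Dpys were lower by this measure in both sexes, and Uox was lower in males. By FPKM itself Upp1 was 2.13-fold and 2.56-fold higher in male and female tumours, and Aox3 was 2.09-fold lower in the female tumour. These low values fell short of the measure.

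Tumour against normal liver used the same tumour libraries, so the comparisons are not independent. Here 6 of the 9 genes were called, where 33.4% of all genes were: Upp1, tested only because of its tumour libraries, rose, as did 17.3% of all genes, and Aox3, Upp2, Dpyd, Dpys and Upb1 fell, as did 16.1%. With a filter on the mean FPKM, under which Upp1 is not tested, 5 were called. Values of 8 genes did not overlap, against 48.8% of all genes, and Aox1 was the exception. The median was -1.07 for the 9 genes and 0.00 for all. At least 2-fold differences on the log2(FPKM + 1) scale were found for 4 genes in males and 5 in females, against 14.4% of all genes in each sex, and all of these were lower in tumours, as were 5.97% of all genes in males and 6.97% in females. This scale shrinks changes at low FPKM. Upp1 was 3.96-fold and 2.81-fold higher by FPKM in male and female tumours, but only 0.83 and 0.71 higher on the scale.

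Precancerous liver of transgenic mice was set against normal liver of wild-type mice. None of the 9 genes was called by edgeR, which called 0.254% of all genes, 29 in number. At an unadjusted p under 0.05 the same test gave 3 of the 9 genes, Aox1, Aox3 and Upp2, and 1807 of all genes; DESeq2 called Aox1 and Aox3 among 368 genes. Values of 4 genes (Aox1, Aox3, Upp1 and Upp2) did not overlap, against 26.3% of all genes. Upp1 lay below 1 FPKM in each of these libraries, at 7 to 31 counts, and was tested only because of its tumour libraries. Its 95% Poisson intervals overlapped within each sex, in females at 0.3947 to 0.8465 FPKM in precancerous and 0.3648 to 0.7621 FPKM in normal liver. Differences of at least 2-fold were found for Aox1 and Aox3 in males, against 3.68% of all genes, and for Aox3 in females, against 2.48%. Upp2, Dpyd and Dpys, the genes with the largest tumour falls against precancerous liver, had precancerous values between 0.58 above and 0.51 below normal liver on the log2(FPKM + 1) scale.

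**Figure D3:**
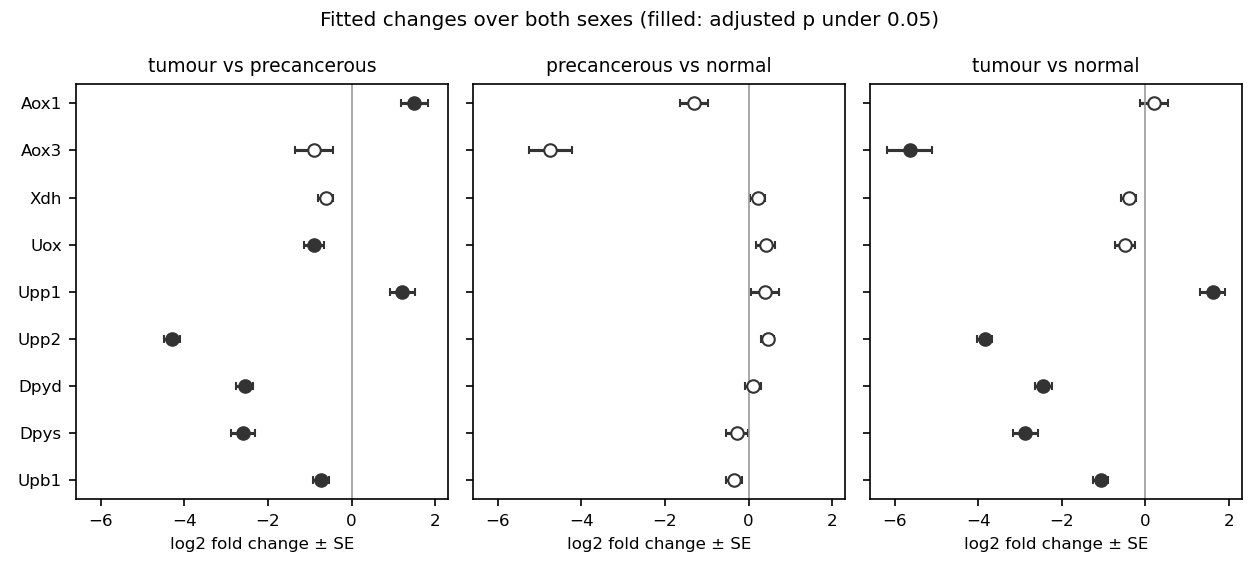
Log2 fold change with its standard error for the 9 genes in 3 comparisons over both sexes, from edgeR's quasi-likelihood test on all 6 libraries; filled points passed an adjusted p of 0.05. Upp2, Dpyd and Dpys lie far to the left in the comparisons with tumours and near 0 between precancerous and normal liver, whereas Aox3 lies far to the left in both comparisons with normal liver.

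Males, 9 months old, were set against females, 15 months old, over the 3 tissues. Upp2 was the gene called, lower in males by 0.50 on the log2 scale (SE 0.13, adjusted p = 0.0384, edgeR), 1 of 9 genes where 37.3% of all genes were called and 18.2% were lower in males. That call was lost in each of the 6 fits without a library (adjusted p 0.0594 to 0.140, edgeR). It was also lost with library totals in place of TMM scaling (0.0572, edgeR) and without a term for tissue (0.856), within a range of 0.00526 to 0.856. Dpys gave -0.59 (SE 0.23, adjusted p = 0.0975, edgeR) and passed without the male tumour (0.0271) or female tumour library (0.0329), within a range of 0.0271 to 0.655. Of all calls in this comparison 51.2% were higher in males with TMM scaling and 63.0% with library totals. In normal liver alone, Aox3 was 3.88-fold and Aox1 2.30-fold higher in the male than in the female library, and Dpys was 2.06-fold lower. These 3 genes were the ones at least 2-fold apart between normal livers, against 11% of all genes; none of the 9 was that far apart between tumours, where the share of all genes was 8.24%, or between precancerous livers, where it was 8.95%.

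Genes around these enzymes were counted from lists in the same comparison of tumour with precancerous liver, in which 13.8% of all genes rose and 12.1% fell. After Upb1, the 3 genes that handle beta-amino acids all fell: Abat, a transaminase that acts on beta-alanine, by 1.45, Aldh6a1, the methylmalonate semialdehyde dehydrogenase, by 1.31, and Agxt2, which transaminates beta-aminoisobutyrate, by 0.69 on the log2 scale. Of 8 genes for the molybdenum cofactor and other molybdenum enzymes, 4 fell and 0 rose, where 12.1% of all genes fell. Suox, sulfite oxidase, fell by 2.69 (SE 0.16, adjusted p = 0.00261, edgeR), with 5.27 and 4.57 FPKM in male and female tumours, 29.2 and 32.8 FPKM in precancerous liver, and 53.7 and 64.9 FPKM in normal liver. Gphn, which completes the cofactor, fell by 1.10, Marc2 by 0.72 and Mocs2 by 0.70. Mocos, which adds the sulfur that Aox1, Aox3 and Xdh need, is a counterexample named after its value was seen, at 0.07 (SE 0.22, adjusted p = 0.841, edgeR).

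Around Xdh and Uox, 8 of 13 listed purine breakdown genes were tested, of which 1 rose and 2 fell, 3 calls where 25.9% of all genes were called. Urad and Urah, which carry the product of Uox on to allantoin, fell by 2.39 (adjusted p = 0.00279, edgeR) and 1.44 (0.00592) on the log2 scale, and Nt5c, a nucleotidase, rose by 0.57. Among urate and nucleoside transporters 3 of 6 tested genes fell and 0 rose: Slc22a7, an organic anion carrier, by 2.48, Slc29a1, an equilibrative nucleoside transporter, by 1.0, and Slc2a9, a urate transporter, by 0.71. Of 16 tested aldehyde dehydrogenases, another route of aldehyde oxidation, 8 fell and 3 rose. The falls include Aldh6a1, also counted among the genes after Upb1. Aldh1a2, a retinaldehyde dehydrogenase, rose by 3.8, with 1.38 and 2.49 FPKM in tumours against at most 0.192 FPKM elsewhere, and Aldh18a1, a proline synthesis enzyme, by 1.92. Both passed the filter on low values only through their tumour libraries, which favoured a difference. Aldh1a1, another retinaldehyde dehydrogenase, fell by 1.55.

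Synthesis and salvage genes were called in both directions. Of 4 tested genes of pyrimidine synthesis from simple precursors, Ctps and Ctps2, which make cytidine triphosphate, rose (log2 fold changes 1.44 and 1.26), and 0 fell. Of 12 purine synthesis genes 2 rose (Adss 0.95 and Atic 0.58) and 2 fell (Paics by 1.28, Adssl1 by 1.02), against 13.8% and 12.1% of all genes. Of 9 tested genes of pyrimidine salvage and deamination 1 rose (Cda, cytidine deaminase, 0.98) and 2 fell (Tk1, a thymidine kinase, by 1.87 and Tymp, thymidine phosphorylase, by 0.71), and of 3 purine salvage genes Adk, adenosine kinase, fell by 0.92.

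**Figure D4:**
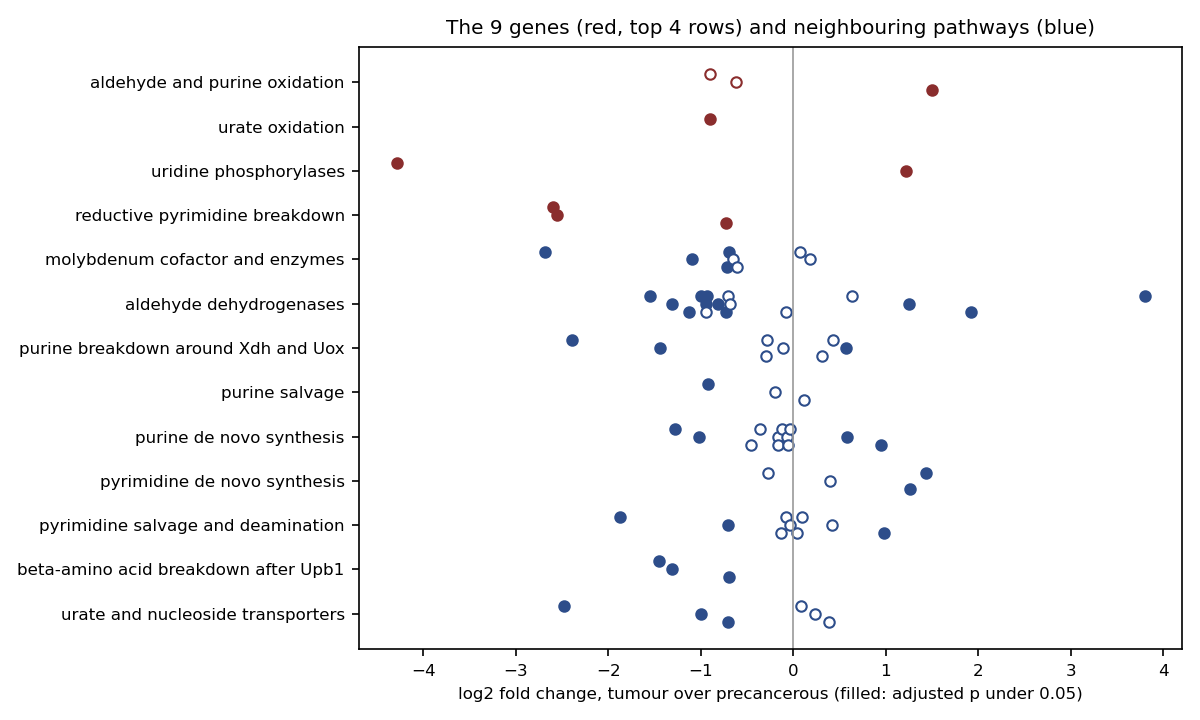
Log2 fold change, tumour over precancerous liver, of the 9 genes (red, top 4 rows) and of the tested genes of 9 neighbouring lists (blue). Each list has 1 point per gene, and Aldh6a1 is drawn both with the aldehyde dehydrogenases and with the genes after Upb1. Filled points passed an adjusted p of 0.05 in edgeR's quasi-likelihood test. Upp2 at -4.29 is the lowest point, and the 3 genes after Upb1 are all filled and below 0.

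The genes most like each of the 9 over the 6 libraries were found among 4882 genes with a mean FPKM of at least 5, by the root mean square difference of centred log2(FPKM + 1) values, as a description. Dpyd was followed most closely by Ugt2a3 (0.138), Dpys by Csrp3 (0.182) and Car5a (0.191), and Upb1 by Ndufs7 (0.054) and Gstz1 (0.074). Upp2 was nearest to Hpd (0.308) and Igfals (0.380), and Upp1 to Gm2a (0.069) and Anxa7 (0.081). For Upp1, low in every library, the scale shrinks fold changes. Its male tumour was 3.96-fold above male normal liver by FPKM, whereas Gm2a had 43.8 and 23.8 FPKM there. Xdh was nearest to Arid5b (0.056) and Pdia5 (0.066), Uox to Prr16 (0.141) and Abca8a (0.144), and Aox1 to Hn1l (0.269) and Insig2 (0.270). No gene came close to Aox3, whose nearest were Rps3a1 (0.726), a ribosomal protein gene for which sharing of reads with other genes was not checked, and Cyp8b1 (0.865), the sterol 12-alpha-hydroxylase of bile acid synthesis. Cyp8b1 had 2.30 and 4.12 FPKM in male and female tumours, 10.5 and 17.7 FPKM in precancerous liver, and 132 and 121 FPKM in normal liver.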

How the data were processed

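The authors deposited 1 table that pairs a raw count with an FPKM value for each gene in each library. Per the submitters' processing notes, the tools were TopHat2 2.0.9 and Cuffdiff, and the builds mm10 and GRCm38; which step each served is not given. Per the labels' protocols, RNA came from a mirVana kit and went into a stranded mRNA library kit; whether counting used strand is not given. No exon of the 9 genes overlaps an exon of another gene in the GENCODE annotation, which held 34267 of the table's identifiers. The gene length implied by the deposited count, FPKM and library total was the same in every library (ratio to male normal liver 0.99998 to 1.00002 for genes with at least 50 counts). Whether it is the true gene length was not settled. It was 3700 bases for Dpys, against 3743 annotated exonic bases, but 4587 against 9175 for Xdh and 3270 against 1961 for Upp1. FPKM ratios between genes depend on these lengths. Coordinates are the table's, and promoter sequences are RefSeq's.

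Genes with at least 1 FPKM in at least 2 libraries were tested with edgeR 4.0.16 (R 4.3.3): quasi-likelihood test, TMM scaling, sex and tissue as additive terms, all 6 libraries, 2 residual degrees of freedom, and two-sided p-values with Benjamini-Hochberg adjustment over 11435 genes. With 1 library per group, p-values measure only the spread between these libraries, and edgeR estimates that spread in part across genes. Single pairs, compared as log2(FPKM + 1), have no test. Poisson intervals and the limit of 3 counts cover counting error only. Alternatives were DESeq2 1.42.0, limma-trend (limma 3.58.1) on log2(FPKM + 1) and log2(FPKM + 0.1), DESeq2's size factors, other filters, a model without the sex or tissue term, each library left out, and, added after seeing the data, library totals without TMM. The 9 genes and the lists were chosen with earlier results of these data known. From each list, the called genes with the largest change between tumour and precancerous liver were named, up to 4, and for each of the 9 genes the 2 most like it, of which 1 is not reported here.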

Additional observations from a re-analysis of the deposited data

Results flagged for a closer look

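In 4 cases a tissue difference ran one way in the male pair of libraries and the other way in the female pair; each pair has 1 library per tissue, and the difference between the sexes was not tested. All values are differences of log2(FPKM + 1). Xdh was 0.46 higher in precancerous than in normal liver of males and 0.04 lower in females (-0.04), which puts the sexes 0.50 apart. For Dpyd the same difference was 0.34 in males and -0.13 in females, 0.47 apart. Dpys gave 0.02 in males and -0.51 in females, 0.53 apart. Aox1 in tumour minus normal liver gave -0.31 in males and 0.78 in females, so the male difference minus the female one was -1.09. The male and female tumours had the same Aox1 level, 12.2 FPKM, and the normal livers 15.3 and 6.65 FPKM.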

How the results depend on the processing

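With 6 libraries and 2 residual degrees of freedom, calls depend on single libraries. Leaving out each library in turn gave 2 to 9 of the 9 genes called between tumour and precancerous liver and 458 to 2933 of all genes, against 7 and 2965 with all libraries. It gave 0 to 1 and 0 to 219 between precancerous and normal liver (0 and 29 with all), 4 to 6 and 1923 to 3241 between tumour and normal liver (6 and 3819), and 0 to 1 and 762 to 3732 between males and females (1 and 4270). Where it leaves 1 sample of a tissue, that sample is assumed to vary like the rest. Without the sex term (the tissue term for the sexes), 2 of the 9 genes and 113 of all genes were called between tumour and precancerous liver, 0 of all genes between precancerous and normal liver, 690 between tumour and normal liver, and 0 and 1237 between the sexes. Between precancerous and normal liver, no filter gave 1 and 183, DESeq2 2 and 368 (57.1% of these higher, against 41.4% of the 29), and limma-trend 3 genes with a pseudocount of 1 and 10 with 0.1. Library totals gave 0 of the 9 genes between the sexes.

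None of the signs that turned belonged to a difference called in edgeR's test with all libraries, and the cause was not tested. Without a library, the log2 fold change ran from -0.10 to 0.36 for Dpyd and from -0.65 to 0.18 for Dpys between precancerous and normal liver, and from -0.36 to 0.84 for Aox1 between tumour and normal liver. Between the sexes it ran from -0.18 to 0.10 for Xdh, from -0.0111 to 0.26 for Dpyd and from -0.11 to 0.53 for Aox1, and Xdh gave 0.0664 and 0.0676 in the limma-trend fits with pseudocounts of 1 and 0.1 and 0.0679 with library totals, against -0.02. Of the fold changes of the 9 genes, 168 of 216 without a library and 267 of 284 in other settings kept their direction and side of the threshold. In males, of lower depth, Upp1 rests on 7 to 34 counts. The sex term compares tissues within a sex, and the labels carry no replicate numbers for another pairing.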

Other observations

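Between tumour and normal liver, where 33.4% of all genes were called, the neighbouring lists gave these counts. The 3 genes after Upb1 fell, with Abat down by 2.17 on the log2 scale (SE 0.15, adjusted p = 0.00141, edgeR's quasi-likelihood test). Of the 8 molybdenum genes 5 fell and 0 rose, and Suox fell by 3.63 (SE 0.16, adjusted p = 0.00104, edgeR). Among 16 aldehyde dehydrogenases 11 fell and 4 rose, the falls including Aldh6a1, also counted among the genes after Upb1. Purine breakdown had 2 rises and 3 falls among 8 genes, and the transporters 0 rises and 3 falls among 6, with Slc22a7 down by 3.69 (SE 0.27, adjusted p = 0.00152, edgeR). Pyrimidine synthesis had 2 rises (Ctps and Ctps2) and 0 falls among 4 genes, and pyrimidine salvage and deamination 1 rise and 4 falls among 9. Purine synthesis had 2 rises and 3 falls among 12 genes, and purine salvage 0 rises and 1 fall among 3.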
